A study of Homo sapiens with 2 samples.

Results

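The genes described here are 10 inflammatory cytokines and chemokines, CXCL8, CXCL1, CXCL2, CXCL3, IL6, LIF, IL1A, IL1B, CCL2 and CXCL12, out of 19775 genes named on the arrays. They were chosen by name, and every probe set annotated to 1 of them alone was taken, 16 in all. Expression was measured in U87, an established human glioblastoma cell line, on Affymetrix U133 Plus 2.0 arrays. One array held RNA from cells given the control siRNA and the other RNA from cells given HOXD9 siRNA-2, an siRNA against the homeobox gene HOXD9, both siRNAs at 50 nM with Lipofectamine RNAiMAX, on the second day after transfection. Both groups were the same bulk culture line with transient transfection. With 1 array in each group no test, SD or p-value between conditions can be given, and every ratio below compares those 2 arrays. In bulk RNA, fewer cells that express a gene and less RNA per cell cannot be told apart.

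CXCL8, CXCL1, CXCL2 and CXCL3 are ELR+ CXC chemokines, named for a glutamate-leucine-arginine motif before the first cysteines. They act on the receptors CXCR2 and, for CXCL8, CXCR1, draw neutrophils and promote vessel growth. IL1A and IL1B encode interleukin-1 alpha and beta, which bind IL1R1 with IL1RAP and activate NF-kB, and NF-kB together with AP-1 and C/EBP factors switches on the genes of the ELR+ chemokines, IL6 and CCL2. IL6 and LIF encode cytokines that signal through gp130, the product of IL6ST, to JAK kinases and STAT3. CCL2 draws monocytes through CCR2, and CXCL12 guides cells through CXCR4 and ACKR3. Glioblastoma cells are known to release several of these proteins.

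The upstream sequences of the ELR+ chemokines and of IL6 are given first. These genes all hold letters of the NF-kB type in front of the start site, and they were picked with the ratios in view. The ratios of CXCL8, CXCL2 and CXCL3 lay below the median of the arrays and that of IL6 above it. Any link between the letters and the ratios was not tested. Each line gives the 150 bases just before the RefSeq start site, 5′ to 3′ on the strand of the gene, in build GRCh38.p14. Capitals mark matches to GGNNTTTCC on either strand.
CXCL8, chr4:73740419-73740568, plus strand: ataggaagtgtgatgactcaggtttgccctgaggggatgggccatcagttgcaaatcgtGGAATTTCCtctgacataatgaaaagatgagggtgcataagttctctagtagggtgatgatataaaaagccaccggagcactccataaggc
CXCL1, chr4:73869243-73869392, plus strand: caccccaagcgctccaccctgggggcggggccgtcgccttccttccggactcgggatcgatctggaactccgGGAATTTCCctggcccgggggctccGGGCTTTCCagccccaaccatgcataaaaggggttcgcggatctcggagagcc
CXCL2, chr4:74099196-74099345, minus strand: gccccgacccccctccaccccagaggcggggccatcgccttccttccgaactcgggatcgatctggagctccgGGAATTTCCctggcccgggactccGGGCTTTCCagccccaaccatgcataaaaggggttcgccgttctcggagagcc
CXCL3, chr4:74038690-74038839, minus strand: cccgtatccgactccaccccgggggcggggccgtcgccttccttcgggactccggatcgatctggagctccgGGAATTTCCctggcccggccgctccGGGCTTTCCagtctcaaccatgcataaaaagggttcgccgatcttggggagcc
IL6, chr7:22727050-22727199, plus strand: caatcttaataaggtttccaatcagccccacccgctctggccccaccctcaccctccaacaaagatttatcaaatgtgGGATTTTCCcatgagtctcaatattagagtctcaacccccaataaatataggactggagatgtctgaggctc

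In the RefSeq windows of 300 bases, of which 250 lie before the start site, GGNNTTTCC was found in 5 of the 8 member genes with a window and in 6.26% of all 35116 windows. CXCL1, CXCL2 and CXCL3 each had 2 matches, the first beginning 78, 77 and 78 bases before the start site and the second 53 bases before it in all 3 genes. CXCL8 had 1 match, 91 bases before the start site, and IL6 had 1, 72 bases before it. The 150 bases shown were 88.8% identical between CXCL1 and CXCL2, 88.1% between CXCL1 and CXCL3 and 86.3% between CXCL2 and CXCL3, whereas CXCL8 shared 44.0% to 47.1% with these 3 genes in the same kind of alignment. The AP-1 letters TGANTCA, present in 7.71% of all windows, were found in CXCL8, 137 bases before the start site, and in IL1A. The C/EBP type letters TTNNGCAA, in 10.5% of all windows, were found in CXCL2, IL6 and IL1B, and the TATA box letters TATAAA, in 11.5%, in CXCL8 and in 1 of the 2 windows of IL1A. The matches did not overlap each other. The window of CXCL12 held none of these letters. A match describes the sequence and is not a measured binding site.

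Signals are the authors' deposited linear intensities, which have no absolute unit. A probe set is a group of short probes to 1 transcript, and a probe set whose name ends in _x_at or _s_at can bind several transcripts. As background, the highest signal of 27 probe sets for Bacillus subtilis control transcripts was used, 18.4, which was read on the HOXD9 siRNA array and was 11.4 on the control siRNA array. Probe sets were kept when the mean of both arrays reached 19.8, the median of all, and a gene was represented by its brightest kept probe set. The median log2 ratio of all 11624 genes kept, HOXD9 siRNA over control siRNA, was -0.25, so a typical gene read lower on the HOXD9 siRNA array. When each array was centered on its own median, every log2 ratio moved up by 0.30. In place of replicate error, different probe sets of a gene had log2 ratios with a pooled SD of 0.41 over 6081 genes, and in 3209 genes with exactly 2 kept probe sets the gap between them had a median of 0.28 and a 95th percentile of 1.19.

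The targeted gene was dim on both arrays. Its brighter HOXD9 probe set read 19.7 with control siRNA and 5.58 with HOXD9 siRNA, and the other read 9.33 and 11.4. Of these 4 signals the 19.7 alone stood above the background. The cell line label was checked against its markers: VIM, CD44, FN1, TNC and ITGB1 were among the 7 of 10 glial and mesenchymal marker genes that passed the signal filter, whereas GFAP, S100B and AQP4 stayed within the background. Of 8 leukocyte and microglial markers with a probe set, CSF1R alone passed, at signals of 102.8 and 99.2. Of 6 endothelial markers 3 passed. PECAM1 read 43.4 and 40.3, KDR 21.5 and 30.0, and TEK 51.6 and 15.2, at least 2.81-fold lower, or 2.28-fold after centering. The other TEK probe set, below the filter, went the other way with 1.95 and 19.9, at least 1.08-fold higher. The other PECAM1 probe sets stayed within the background. The part of these markers in the results was not tested.

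None of the 10 genes differed by more than 2-fold on a probe set that passed the filter, the threshold used in the study. Of all genes kept, more than a 2-fold difference was found downward in 4.95% and upward in 0.516%, or 2.31% and 1.17% with each array centered on its median. Of 27307 probe sets kept, 6.69% were past 2-fold downward and 0.615% upward. Of the 10 genes, 8 passed the filter, on 11 of the 16 probe sets, and in all 11 both signals lay above the background. CXCL1 and CXCL12 did not pass. The median log2 ratio of the 8 genes was -0.28, against -0.25 for all genes kept, and 4 of the 8 lay below that median of all genes and 4 above it. The set as a whole therefore stood where a typical gene did, while its members were spread from -0.84 for CXCL3 to 0.25 for LIF.

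**Figure D1:**
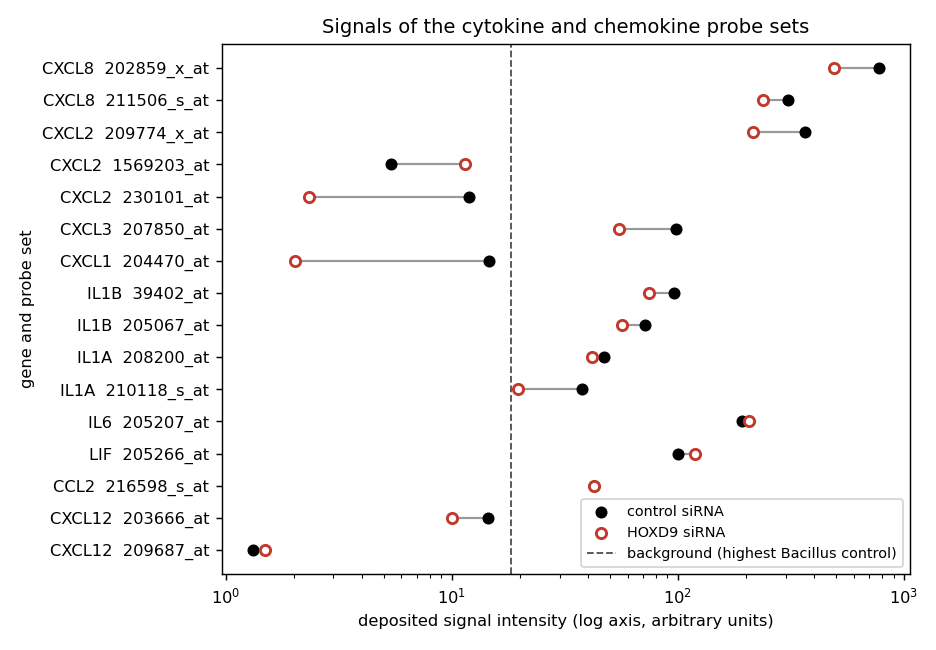
Signal of each of the 16 probe sets of the 10 genes (y axis) on the control siRNA array (black) and the HOXD9 siRNA array (open red), on a log x axis in arbitrary units. The dashed line is the background of 18.4. The 5 probe sets to its left, of CXCL1, CXCL2 and CXCL12, lay within the background on both arrays.

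On their brightest probe sets the ELR+ chemokines had the lowest log2 ratios of the 8 genes. CXCL8, which encodes interleukin-8, read 774 with control siRNA and 490 with HOXD9 siRNA on probe set 202859_x_at, or 63.3% of the control and a log2 ratio of -0.66. On the dimmer one, 211506_s_at, CXCL8 read 307 and 237, which gave -0.37 on the log2 scale. Both CXCL8 probe sets were lower on the HOXD9 siRNA array, and the gap between them, like that in many genes with a pair of probe sets, was about the size of the median gap of 0.28. CXCL3, a chemokine that acts through CXCR2, read 98.2 and 54.9 on its single probe set, 55.9% of the control and a log2 ratio of -0.84. Among all genes kept, 7.85% had a lower ratio than CXCL3 and 14.2% a lower one than CXCL8. These ratios thus lay toward the low end of the arrays but inside the range of the middle 90% of genes, which ran from -0.998 to 0.29.

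CXCL2, a close relative of CXCL3, was read by 3 probe sets, of which 1 stood above the background. Probe set 209774_x_at read 364 with control siRNA and 215 with HOXD9 siRNA, a log2 ratio of -0.76, and 10.3% of all genes kept had a lower one. The other probe sets, 230101_at and 1569203_at, gave 11.9 and 2.34, and 5.39 and 11.5, all within the background. The 11.9 was slightly above the 11.4 of its own array. The value of CXCL2 thus rests on a probe set that by its name can bind several transcripts, and whether it also read the similar transcripts of CXCL1 or CXCL3 was not tested. CXCL1, first described as a melanoma growth factor, read 14.7 and 2.02 on its single probe set. Both CXCL1 signals lay within the background of 18.4, although the first was above the 11.4 of its own array, and no fold difference is given. Without the probe sets ending in _x_at or _s_at, CXCL3 was the only ELR+ chemokine that passed the filter.

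After centering on the median, the 4 kept ELR+ chemokine probe sets stood between -0.54 and -0.07, and all 4 were still below 0. CXCL3 was then at -0.54, CXCL2 at -0.46, and CXCL8 at -0.36 and -0.07. The range was -0.49 to -0.08 after quantile normalization and -0.50 to -0.08 after removal of a loess trend on signal. The pooled SD among probe sets of a gene was 0.30 at the signal of the brighter CXCL8 probe set and of CXCL2, and 0.54 at that of CXCL3, so the centered CXCL3 value was no larger than the latter.

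IL6 and LIF, the gp130 cytokines among the 10 genes, stood at the other end. IL11, a gp130 cytokine outside these 10, had a log2 ratio of -1.22. IL6, a mediator of acute inflammation, read 193 with control siRNA and 206 with HOXD9 siRNA on its single probe set, a log2 ratio of 0.09. LIF, the leukemia inhibitory factor, which sustains stem cells, read 100.4 and 119.7 on its single probe set, a log2 ratio of 0.25. Both signals were slightly higher on the HOXD9 siRNA array, where a typical gene read lower. Of all genes kept, 89.1% had a lower ratio than IL6 and 94.3% a lower one than LIF. With the arrays centered, IL6 stood at 0.39 and LIF at 0.55, and by quantile normalization LIF reached 0.60. The pooled SD among probe sets at their signals was 0.36. LIF, with a mean signal of 110.1, lay just above 109.3, where that range of signals began. In the dimmer range the pooled SD was 0.54, about the size of the centered LIF value.

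CCL2, the monocyte chemoattractant, read nearly alike on both arrays. Its single probe set, 216598_s_at, read 42.8 with control siRNA and 42.5 with HOXD9 siRNA, a log2 ratio of -0.01, and by its name can bind several transcripts. On the scale of the arrays this equal reading lay above 82.1% of all genes kept, and after centering it was 0.29. CXCL12 was not detectable above background. Its probe sets read 14.5 and 9.99, and 1.32 and 1.496. The 14.5, read with control siRNA, did exceed the 11.4 of its own array.

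The interleukin-1 genes lay near the median of the arrays. IL1B, whose product is cleaved from a precursor before release, read 96.0 and 74.4 on probe set 39402_at, a log2 ratio of -0.37. On probe set 205067_at it read 71.6 and 56.5, a log2 ratio of -0.34. The IL1B probe sets thus gave nearly the same ratio, and both lay close to 0 after centering, at -0.07 and -0.04. IL1A, whose product also acts from within the cell and on its surface, read 47.3 and 41.6 on its brighter probe set, a log2 ratio of -0.18. On the dimmer one, 210118_s_at, it read 37.8 and 19.6, a log2 ratio of -0.95, with the second signal just above the background. The IL1A probe sets therefore straddled 0 after centering, at 0.12 and -0.65, and the direction of IL1A relative to the arrays depended on the probe set.

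**Figure D2:**
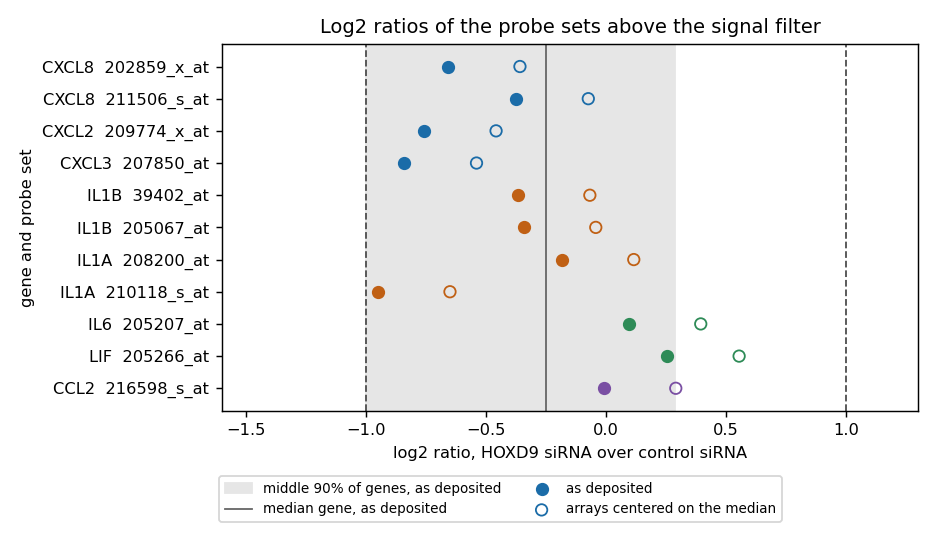
Log2 ratio, HOXD9 siRNA over control siRNA (x axis), of the 11 probe sets above the signal filter (y axis), as deposited (filled) and with each array centered on its median (open). Colors mark ELR+ chemokines (blue), interleukin-1 genes (orange), IL6 and LIF (green) and CCL2 (purple). Gray marks the range of the middle 90% of genes as deposited, the solid line the median gene at -0.25 and dashed lines 2-fold. The filled blue points lie left of the median gene and the filled green and purple points right of it.

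Differences between genes on the same pair of arrays do not move when an array is rescaled by 1 factor. Ordered by their brightest probe set, the 8 genes ran from CXCL3 (-0.84) through CXCL2 (-0.76), CXCL8 (-0.66), IL1B (-0.37), IL1A (-0.18), CCL2 (-0.01) and IL6 (0.09) to LIF (0.25). Of 28 pairs of genes, LIF and CXCL3 lay farthest apart, by 1.09 on the log2 scale, followed by LIF and CXCL2 with 1.01 and IL6 and CXCL3 with 0.93. IL6 and CXCL8 differed by 0.75, and CXCL8, CXCL2 and CXCL3 by 0.08 to 0.18 among themselves. All 4 ELR+ chemokine probe sets lay below all 3 of IL6, LIF and CCL2, from -0.84 to -0.37 against -0.01 to 0.25. The same separation was found after quantile normalization, -0.49 to -0.08 against 0.34 to 0.60, and after loess, -0.50 to -0.08 against 0.33 to 0.58. This grouping was made with the values in view, and rescaling the same 2 arrays gives no separate support for it. None of the 28 differences exceeded 1.19, the 95th percentile of the gap between 2 probe sets of the same gene. That gap pools dim and bright genes and does not measure error between arrays or cultures. It therefore cannot decide whether any of these genes differ from each other, and this was not tested.

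The receptors of these ligands and their antagonists were next compared. Of 13 genes, 7 passed the signal filter and none was past 2-fold on its brightest probe set, and their median log2 ratio was -0.20. IL1R1, the signaling receptor of interleukin-1, read 462 and 254 on its brighter probe set and 56.8 and 33.0 on the other, log2 ratios of -0.86 and -0.78, or -0.56 and -0.48 after centering. On both probe sets the ratio of IL1R1 was lower than those of IL1B and of the brighter IL1A probe set. Its co-receptor IL1RAP had log2 ratios of -0.20 and 0.07. The receptor antagonist IL1RN read 15.2 and 26.6 on its only kept probe set, at least 1.44-fold higher against the background. Its measured log2 ratio was 0.80, or 1.10 after centering. The 15.2 was, however, higher than the 11.4 of its own array. Below the filter, an IL1RN probe set nearly as bright read 18.1 and 19.8, at least 1.08-fold higher. Another read 3.47 and 26.1, at least 1.42-fold higher, and the remaining ones stayed within the background.

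LIFR, the receptor of LIF, gave log2 ratios of -0.47, -1.01, -1.43 and -0.98 on its 4 kept probe sets, from the brightest to the dimmest. On the brightest LIFR read 754 and 544, and on the third 231 and 85.5. LIF and its receptor thus had ratios of opposite sign as deposited, and 2 of the 4 LIFR probe sets were past 2-fold, or 1 after centering (-1.13). IL6ST, the gp130 chain they share, ranged from -0.28 to 0.09 over 5 kept probe sets, and IL6R, the IL6 binding chain, had -0.11 and -0.31, close to the median of the arrays. ACKR3, a scavenging receptor of CXCL12, read 55.7 and 68.7, a log2 ratio of 0.30. CXCR1, CXCR2, CXCR4, CCR2, ACKR1 and IL1R2 stayed within the background on all of their probe sets, so that CXCR2, CCR2 and CXCR4, the receptors of the ELR+ chemokines, CCL2 and CXCL12, were not detectable above it. The highest of these signals, 18.1 for CXCR4 with control siRNA, did exceed the 11.4 of its own array.

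Most other chemokines were also not detectable. Of 18 further chemokine genes with a probe set, 16 had all signals within the background, and CCL26, an eosinophil chemokine, alone passed the filter, with 31.2 and 28.4, a log2 ratio of -0.14. For CCL5 a probe set read 2.45 and 21.1, at least 1.15-fold higher, and below the filter. Among 19 other cytokines with a probe set, 8 passed and 2 of them were lower by more than 2-fold, IL23A and IL11, and their median was -0.62, or -0.32 after centering. IL11, a gp130 cytokine like IL6 and LIF, read 65.8 and 28.3, a log2 ratio of -1.22, or -0.92 after centering. Its ratio was opposite in sign to those of IL6 and LIF. IL23A, a subunit of interleukin-23, read 37.8 and 9.82 and was at least 2.06-fold lower, or 1.67-fold after centering, since the second signal lay within the background. TSLP, an epithelial alarmin, had a log2 ratio of -0.81, and CSF1, the macrophage growth factor, -0.72 on its brightest probe set, with -0.40 and -0.36 on the others.

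Among 10 kept genes from other targets of NF-kB and interleukin-1, 2 were lower by more than 2-fold and the median was -0.42 (-0.12 after centering). PTGS2, the inducible cyclooxygenase, read 91.2 and 35.9, a log2 ratio of -1.35, and TNFAIP6, a hyaluronan binding protein induced by these cytokines, read 102.6 and 42.0, -1.29, with -0.77 on its other probe set. After centering PTGS2 stood at -1.05 and TNFAIP6 at -0.99, on either side of 2-fold. PTX3, a secreted pattern recognition protein, had -0.69, in the range of CXCL8, CXCL2 and CXCL3. ICAM1, an adhesion molecule, had -0.59 on its brightest probe set, but its other kept probe sets read 48.8 and 19.99 (-1.29) and 16.8 and 36.8, so that they disagreed in direction. MMP1, a collagenase, had 0.36 from signals of 19.3 and 24.7, near the background, and was at least 1.35-fold higher after centering. MMP3 read 200 and 226, a log2 ratio of 0.17, so the list held ratios of both signs.

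The NF-kB genes themselves were mostly near the median of the arrays. Of 16 kept subunits and kinases, 1 was past 2-fold and the median was -0.27. That gene was TAB2, an adaptor of the kinase TAK1, which read 599 and 294, a log2 ratio of -1.03 (-0.73 after centering), and -0.88 on its other kept probe set. TAB1 had -0.86, RELB -0.73 and IKBKB -0.41 (-0.75 and -0.79 on its others), while the subunits RELA and NFKB1 had -0.24 and -0.10. The subunit REL had -0.36 on its brightest probe set. On the next it read 87.0 and 37.0, a log2 ratio of -1.23 (-0.93 after centering), and on another it had -0.72. The dimmest kept REL probe set was at least 1.51-fold lower, its second signal being within the background. NFKB2 had -0.33 and 0.34 on its kept probe sets. Of 10 kept inhibitors and feedback genes none was past 2-fold and the median was -0.22. NFKBID had -0.91, TNIP2 -0.54 (-0.82 to -0.04 over 3 probe sets), NFKBIZ -0.35 and -0.88, and TNFAIP3, which encodes the deubiquitinase A20, -0.28 and -0.57. NFKBIA, the I-kappa-B alpha gene that NF-kB itself induces, read 817 and 820, a log2 ratio of 0.01.

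Of 12 kept genes listed as AP-1 and C/EBP factors none passed 2-fold and the median was -0.12. JUNB had -0.77. CEBPZ, whose place in this list rests on its symbol alone, had -0.43. FOSL2 had -0.41 on its brightest probe set, with a range of -0.81 to 0.73 over 5. FOS, which read 18.7 and 26.6 near the background, had 0.51. Among 13 kept genes of gp130, JAK and STAT signaling the median was -0.18 and again none was past 2-fold. SOCS1 had a log2 ratio of 0.80, or 1.10 after centering, PIAS3 -0.61 and SOCS2 -0.33, with at least 1.46-fold lower on its other kept probe set. SOCS3, the feedback inhibitor induced through gp130, read 376 and 221 on its brightest probe set, -0.76, and its other kept probe sets gave -1.58 and 0.35, so that its probe sets disagreed. STAT3 had -0.18 on its brightest probe set.

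Stability of cytokine transcripts is set by proteins that bind AU-rich elements and by decay enzymes. Of 16 kept genes of this list none was past 2-fold and the median was -0.26. XRN1, an exonuclease, had -0.85 on its brightest probe set but -0.26 and -0.47 on its others, TIA1 -0.51 (-0.81 to -0.19 over 6), HNRNPD -0.42 (-0.92 to -0.42 over 6) and CNOT7 -0.37 (-0.80 to -0.18 over 4). Of 8 kept genes for the processing and release of interleukin-1 none was past 2-fold, and the median was -0.20. NLRP1, an inflammasome sensor, had -0.83 and -0.14, the adaptor PYCARD -0.61, CASP4 -0.25 and GSDMD, a pore-forming protein, 0.28.

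Over these 10 lists 101 of 153 genes passed. Of these, 5 were past 2-fold downward and 0 upward, and the 4.95% that this makes was the share found among all genes kept. Their median was -0.25, as for all genes. Centered on the median, 2 were lower and 2 higher by their measured ratios. PTGS2 (-1.05) and SOCS1 (1.10) had both signals above the background, whereas IL23A and IL1RN had 1 signal within it and were past only 1.67-fold and 1.44-fold by their bounds.

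**Figure D3:**
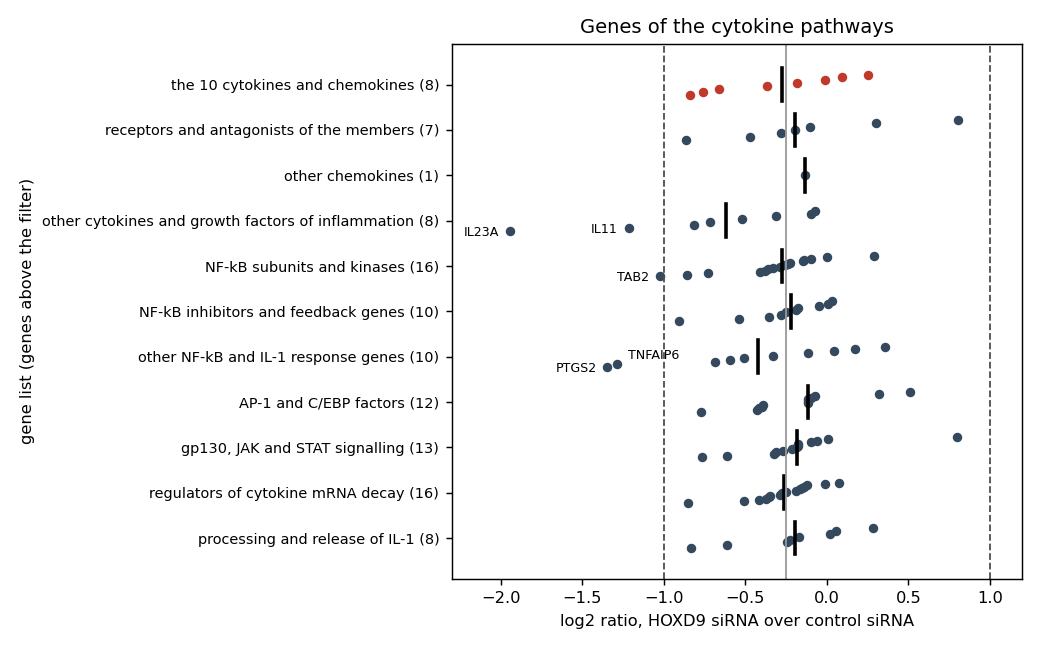
Log2 ratio, HOXD9 siRNA over control siRNA (x axis), of each gene above the signal filter on its brightest probe set, for the cytokines and chemokines (red) and 10 lists of pathway genes (y axis, number of genes in parentheses), as deposited. Black bars are list medians, the gray line the median gene at -0.25 and dashed lines 2-fold. The 5 labeled genes are those past 2-fold, and the point of IL23A is the measured ratio, its second signal being within the background.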

How the data were processed

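U87 RNA was measured on 2 Affymetrix U133 Plus 2.0 arrays, 1 per siRNA. The authors deposited linear signal intensities, 1 for each probe set. GCOS is named in the submitters' processing notes and GeneSpring in the paper, and a scaling target is not given in the sources used here. Medians of the deposited signals differed, 22.5 with control siRNA and 18.3 with HOXD9 siRNA. After 62 control probe sets were set aside, 54613 remained. Names came from the platform annotation, updated through Entrez gene numbers to RefSeq symbols for 41037 of the 41091 probe sets with 1 gene; 1801 with several genes and 11721 without a listed gene were not named. Sequences are RefSeq's, with windows for 8 of the 10 genes.

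Log2 ratios, counts and medians were computed from the deposited signals. A signal at or under the background gave only a bound, the other signal over the background. The settings tried were centering, quantile normalization, loess (fraction 0.3), no filter, a floor at the background, a stricter filter (75.7, the 70th percentile), no _x_at or _s_at probe sets, and probe set means. The computation of ratios and 2-fold calls was tested on simulated signals, which says nothing about the noise between cultures. The members and lists were chosen with earlier results of these data known. Named genes are the 10 members, HOXD9, the 4 genes of each list with the largest ratio in size and those past 2-fold. The receptors, CCL5, REL, RELA, NFKB1, NFKB2, NFKBIA, STAT3, MMP1, MMP3 and the marker genes were named for their role with values seen. Precision is limited by the number of arrays. Python 3.11.15, numpy 2.4.6, pandas 2.3.3, statsmodels 0.14.6, matplotlib 3.10.9 and Biopython 1.88 were used.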

Additional observations from a re-analysis of the deposited data

How the results depend on the processing

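No paired analysis was possible because each condition had 1 array, and for the same reason no array could be left out. No member passed 2-fold under the settings run, except that without a signal filter 1 was lower, CXCL1, from signals within the background (14.7 and 2.02). The median of the members ranged from -0.51 with the filter at the 70th percentile to 0.07 after quantile normalization. Of the 5 genes of the pathway lists that were lower by more than 2-fold, 2 remained by measured ratio after centering and after loess (IL23A and PTGS2) and 1 after quantile normalization (IL23A), and these 3 scalings each put 2 genes higher (IL1RN and SOCS1). By their bounds against the background, IL23A (1.65-fold to 1.67-fold) and IL1RN (1.44-fold to 1.46-fold) were not past 2-fold under these scalings. TAB2 stood at -0.95 as the mean of its probe sets, no longer past 2-fold. With no signal filter the lists had 14 lower and 13 higher, and with the filter at the 70th percentile 1 lower, TAB2, because the others were dimmer. Taken at the background IL23A stood at -1.04. CXCL8, CXCL2 and CCL2 had no value without _x_at and _s_at probe sets. LIFR gave -0.97 as the mean of its probe sets, against -0.47 on the brightest. IL1A turned from -0.57 by averaging to 0.17 by quantile normalization. Signals near the background limit what can be said of the dim genes, CXCL1, CXCL12 and the chemokine receptors among them.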
